A study of Homo sapiens with 25 samples.

Results

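BT20, an established human breast cancer line with much EGFR and without ERBB2 amplification, was measured 6 h after the EGFR kinase inhibitor erlotinib was added at 10 µM. The members are all arrays of BT20 labelled 6 hour (3 arrays) and all of BT20 labelled 0 minute in the same part of the study (4 arrays), 7 of the 25 Affymetrix arrays of the series, chosen by their titles. Both groups were plated in medium with 10% serum and left to adhere for 24 h. The 6 h cells then had erlotinib for 6 h, and the 0 min cells were taken at the time of addition, and the labels put the same 10 µM on both. No group was kept for 6 h without the drug, so drug and time in culture cannot be told apart. BT20 is 1 line in dishes. The other arrays, of BT20 at 30 min and 24 h and of the lines MDA-MB-453 and MCF, entered the estimate of the spread. The comparison asks which transcripts differed once EGFR had been inhibited for 6 h.

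EGFR is a receptor tyrosine kinase whose ligands switch on 2 main routes in epithelial cells. The RAS-ERK route drives immediate early and ETS transcription factors, and also transcripts of DUSP phosphatases and Sprouty proteins, which restrain ERK in turn. The PI3K-AKT route keeps FOXO transcription factors out of the nucleus. Erlotinib occupies the ATP site of the kinase. ATF4, a transcription factor made when translation initiation is slowed by stress kinases, drives genes of amino acid supply and is also named below.

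Values are log2 levels per probe set, background-corrected and normalized by the authors, so a difference of 1 is a doubling. At 6 h, 127 of 12643 genes tested were higher and 127 lower under both of 2 comparisons, 1.00% each way. The first comparison took the mean of the 6 h arrays minus the mean of all 4 arrays at 0 min. It called 4827 genes (38.2%), with 2726 higher (21.6%) and 2101 lower (16.6%). The second took the 6 h mean minus 0 min replicate 4 alone, and it called 292 genes (2.31%), with 139 higher (1.10%) and 153 lower (1.21%). A call is an adjusted p under 0.05 in limma. Replicate 4 was set apart because it correlated with the 6 h arrays at r = 0.99 to 0.992 across genes, and with the other 0 min arrays at 0.971 to 0.975. The 6 h arrays correlated with 0 min replicates 1 to 3 at 0.955 to 0.963. In 13.9% of genes replicate 4 lay over 1 log2 unit from the mean of replicates 1 to 3. Why it does so was not tested. A gene is said below to rise or fall only where both comparisons called it the same way. Together these make 2.01% of genes. The comparisons share replicate 4 and the 6 h arrays and are therefore not independent.

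**Figure D1:**
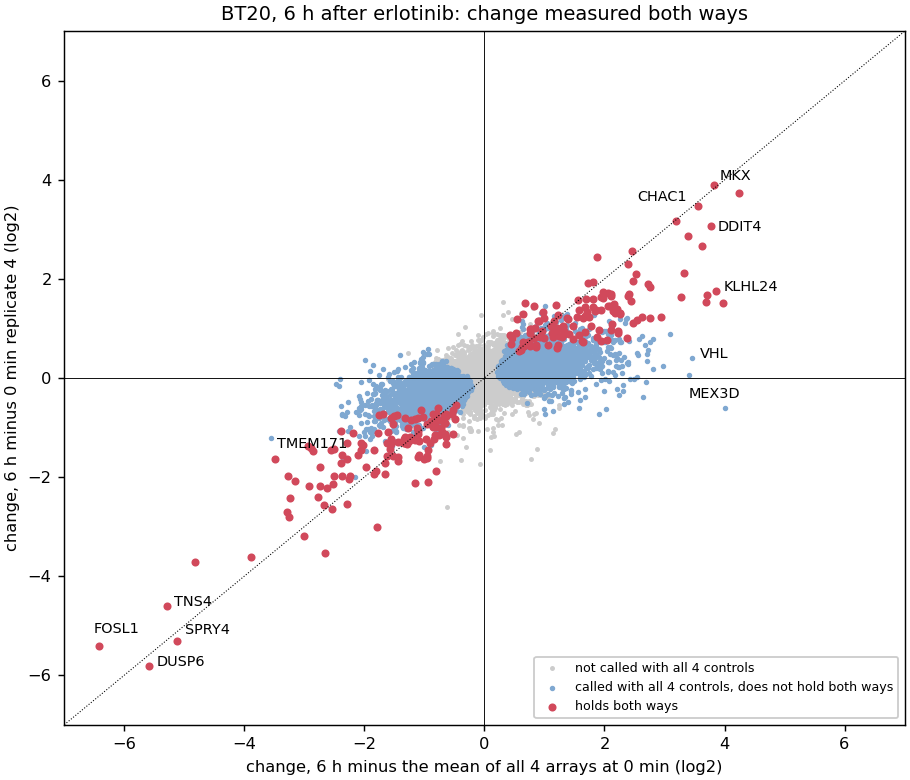
Change at 6 h in BT20 for each of 12643 genes, in log2 units, against all 4 arrays at 0 min (horizontal) and against 0 min replicate 4 alone (vertical), with the 127 genes that rose and the 127 that fell both ways in red and genes called with all 4 controls only in blue. The remaining genes spread widely along the horizontal axis and narrowly along the vertical one.

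The 127 rises had a median change of 1.67 with all 4 controls and 1.20 against replicate 4. The 127 falls had medians of -1.45 and -1.32. The median over all genes was -0.00625 and 0.013. Of the rises 70 passed 1 log2 unit both ways, and of the falls 77 did. In all 254 genes the 6 h arrays did not overlap the 0 min arrays, as in 44.2% of genes tested. Being called both ways makes such a gap likely, so it is no separate support. Without replicate 4 the first comparison called 6046 genes. In 29 rises and 19 falls the lower group mean lay under 4, the level used as the filter, where the size of a change is inexact. Of the genes named below these include MKX, ALDH1L2 and PDK4 among the rises and DUSP6, SPRY4, SPRY4-IT1, MFSD2A and EGR3 among the falls. Sizes refer to the brightest probe set of a gene. For the mean of all its probe sets a change moved by over 1.5 times in 26 of 62 held genes fixed for naming, and a call ended in 8, whose values are given beside them. In pairs of changes below, the first is with all 4 controls and the second against replicate 4. For some genes other ways of fitting are given too. Of these, array weights did not converge in their estimation and called 9301 of 12643 genes with all 4 controls. A call under array weights alone therefore says little. Separate cultures are not stated for the arrays of a group, and p-values therefore cover only how these arrays varied, which may be technical. A lower level in such an extract cannot be told apart between fewer expressing cells and less RNA per cell.

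The markers of the labelled cells were largely present. Of 8 basal epithelial markers matched, 7 had a mean above 4 at 6 h and at 0 min, KRT14 being the exception. The basal keratin KRT5 had 11.52 at 6 h and 12.37 at 0 min. Of 15 luminal markers 7 were above 4, among them ESR1, the estrogen receptor, with 9.003 at 6 h and 8.657 at 0 min. The summed linear level of the basal markers was 14100 to 15300 over the 6 h arrays and 17600 to 24400 over the 0 min arrays. That of the luminal markers was 16000 to 17400 at 6 h and 20500 to 28700 at 0 min. Of 10 fibroblast markers, COL1A1 alone was above 4 (9.09 at 6 h, 9.11 at 0 min), and the list summed to 506 to 748 and 426 to 710. Of 8 endothelial markers, CDH5 (11.05 and 11.13) and ERG (5.35 and 7.28) were above 4 and PECAM1 was not (3.71 and 3.60), and the list summed to 2170 to 2230 at 6 h and 2090 to 3810 at 0 min. All 7 blood cell markers matched were under 4, summing to 30.4 to 31.2 at 6 h and 30.4 to 33.2 at 0 min. Of these lists XBP1 alone rose and no member fell.

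Some feedback inhibitors of the ERK route fell, none of those tested rising. Of 10 DUSP phosphatases tested 3 fell, and of 5 Sprouty and SPRED genes 4 fell, against 1.00% of all genes in each direction. In the comparison with all 4 controls 3 DUSP genes were called higher and 5 lower, against 21.6% and 16.6% of all genes. DUSP6, which removes phosphate from ERK itself, had 3.50, 3.67 and 3.66 at 6 h, against 9.02, 8.94, 9.39 and 9.42 at 0 min. SPRY4, a Sprouty inhibitor of receptor tyrosine kinase signalling, had 2.11, 2.02 and 2.28 at 6 h, against 7.15, 7.28, 7.13 and 7.45 at 0 min. Both stood high on every 0 min array, replicate 4 included, and under 4 on every 6 h array. The change of DUSP6 was -5.58 ± 0.19 with all 4 controls (adjusted p = 5.79e-14) and -5.81 ± 0.29 against replicate 4 (adjusted p = 2.05e-10). That of SPRY4 was -5.12 ± 0.17 with all 4 controls (adjusted p = 4.4e-14) and -5.31 ± 0.25 against replicate 4 (adjusted p = 1.64e-10). As the 6 h means lay under 4, at 3.61 ± 0.09 (SD, n = 3) and 2.13 ± 0.13 (SD, n = 3), these sizes are inexact. SPRY4-IT1, a noncoding transcript from an intron of SPRY4, fell as well (-3.25 and -2.81), with a 6 h mean of 2.94 ± 0.19 (SD, n = 3). It lies within SPRY4, so its signal and that of unspliced SPRY4 cannot be told apart here.

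The other 5 inhibitors that fell kept high levels. DUSP4, a nuclear phosphatase of ERK, had 9.11, 9.12 and 8.94 at 6 h, against 10.88, 10.58, 10.38 and 10.99 at 0 min. SPRED2, which like its relative SPRED1 binds neurofibromin and lowers RAS activity, had 9.38, 9.03 and 9.39 at 6 h, against 10.18, 10.23, 10.22 and 10.82 at 0 min. SPRY2 had 8.25, 8.49 and 8.21 at 6 h, against 8.95, 8.99, 9.27 and 9.78 at 0 min. In these genes every 6 h array lay under every 0 min array, and replicate 4 was the highest of the controls. The changes were -1.65 and -1.93 for DUSP4, -1.09 and -1.55 for SPRED2 and -0.93 and -1.46 for SPRY2. Further DUSP4 probe sets changed by more, by -2.72 and -2.47 and by -2.69 and -2.40. A further SPRED2 probe set changed by less, by -0.82 and -1.36. DUSP5, a nuclear ERK phosphatase, had 8.89, 8.59 and 8.71 at 6 h, against 9.29, 9.31, 9.24 and 10.83 at 0 min, and SPRED1 had 9.58, 9.42 and 9.65 at 6 h, against 9.82, 9.81, 10.29 and 10.88 at 0 min. Replicate 4 was the highest control in both genes, and far above the others only in DUSP5. Both calls with all 4 controls ended without it. Without replicate 4 the change of DUSP5 was -0.55 (adjusted p = 0.118) and that of SPRED1 -0.42 (adjusted p = 0.0794). Leaving out a 6 h array also took DUSP5 to an adjusted p of 0.0621 to 0.108, and SPRED1 to 0.051 to 0.0936, with SPRED1 at 0.0588 without 0 min replicate 3. These SPRED1 values are for its brightest probe set, which changed by -0.65 and -1.33. Further SPRED1 probe sets changed by more both ways, by -1.405 and -1.6 and by -3.515 and -2.397. The medians of the lists were -0.60 and -0.11 for the DUSP genes and -0.93 and -1.55 for the Sprouty and SPRED genes. SPRY1 did not fall both ways. Its levels were 4.02, 4.004 and 4.35 at 6 h, against 3.67, 4.44, 4.14 and 6.72 at 0 min, so that replicate 4 alone stood apart, with changes of -0.62 and -2.60 and a call in the second only.

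**Figure D2:**
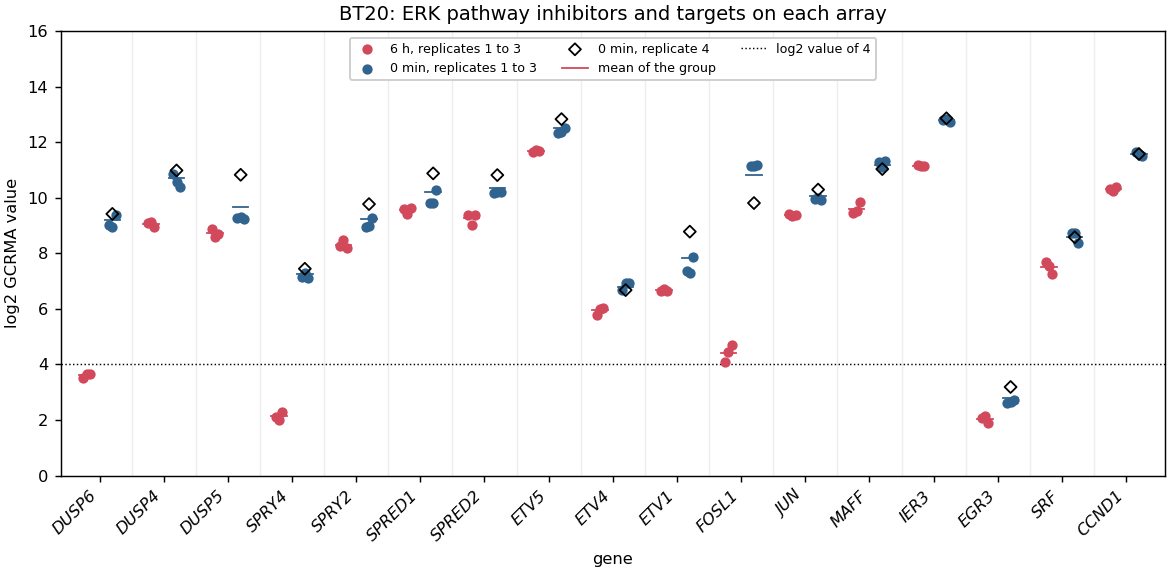
Log2 level on each array for genes of the ERK route, with 6 h arrays left of 0 min arrays and replicate 4 marked. DUSP6, SPRY4 and FOSL1 are separated by over 4 log2 units, and DUSP5 and SPRED1 only narrowly from 0 min replicates 1 to 3.

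Some transcription factors downstream of ERK fell. Of 14 ETS factors, ETV1, ETV4 and ETV5 fell and none rose. These 3 form the PEA3 group, whose transcripts are known to depend on ERK activity. ETV5 had 11.66, 11.72 and 11.67 at 6 h, against 12.35, 12.37, 12.50 and 12.84 at 0 min, with a change of -0.83 ± 0.11 with all 4 controls (adjusted p = 3.07e-05) and -1.15 ± 0.14 against replicate 4 (adjusted p = 4.36e-05). Further ETV5 probe sets changed by -0.89 to -2.72 with all 4 controls and by -1.14 to -2.74 against replicate 4. ETV1 had 6.66, 6.72 and 6.63 at 6 h, against 7.37, 7.29, 7.87 and 8.78 at 0 min, replicate 4 being the highest control, and changed by -1.16 and -2.11. ETV4 had 5.79, 5.99 and 6.05 at 6 h, against 6.68, 6.92, 6.94 and 6.68 at 0 min. The ETV4 arrays did not overlap, and its change was -0.86 ± 0.13 with all 4 controls (adjusted p = 6.06e-05) and -0.73 ± 0.19 against replicate 4 (adjusted p = 0.0435). Its second call ended without any of the 6 h arrays or 0 min replicate 2 or 3, with adjusted p of 0.0503 to 0.134. The medians over the ETS list were 0.31 and -0.02, and 6 members were called higher with all 4 controls against 3 lower. Over all genes tested that comparison called 21.6% higher and 16.6% lower.

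Of 9 AP-1 and small MAF subunits 3 fell and none rose. FOSL1, the AP-1 subunit FRA1, had the largest fall of any gene with all 4 controls among those named. It had 4.08, 4.46 and 4.68 at 6 h, against 11.15, 11.15, 11.20 and 9.81 at 0 min. Every 0 min array was over 5 log2 units above the 6 h arrays, replicate 4 being the lowest of them, and the change was -6.42 ± 0.33 with all 4 controls (adjusted p = 2.65e-11) and -5.40 ± 0.41 against replicate 4 (adjusted p = 7.21e-08). JUN, its dimer partner, had 9.44, 9.34 and 9.38 at 6 h, against 9.96, 10.01, 9.93 and 10.30 at 0 min, a change of -0.66 and -0.91. Further JUN probe sets changed by -0.81 to -2.54 with all 4 controls and by -1.20 to -1.40 against replicate 4. MAFF, a small MAF that pairs with CNC factors, fell by less than FOSL1 and changed by -1.58 and -1.42. The list's medians were -0.16 and -0.34.

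Of 13 immediate early genes 3 fell and none rose, with medians of -0.40 and -0.63. IER3, a short-lived protein induced by growth factors, had 11.18, 11.13 and 11.14 at 6 h, against 12.81, 12.83, 12.72 and 12.87 at 0 min, and changed by -1.65 ± 0.14 with all 4 controls (adjusted p = 4.5e-08) and -1.71 ± 0.21 against replicate 4 (adjusted p = 4.36e-05). SRF, which drives many immediate early promoters, had 7.68, 7.56 and 7.27 at 6 h, against 8.73, 8.74, 8.37 and 8.58 at 0 min, and changed by -1.10 and -1.08; without 6 h replicate 3 its second adjusted p was 0.0623, and for the mean of its probe sets the second change was -0.72 (adjusted p = 0.166). EGR3 was called both ways (-0.75 and -1.15), but both its means lay under 4, at 2.04 ± 0.12 (SD, n = 3) at 6 h and 2.79 ± 0.27 (SD, n = 4) at 0 min. All 7 arrays compared lay under 4, so EGR3 met the filter only through arrays outside this comparison. The second EGR3 call ended without any of the 6 h arrays or 0 min replicate 1 or 2, with adjusted p of 0.0519 to 0.11. EGR1, the best-known member, had 12.05, 11.91 and 11.71 at 6 h, against 12.01, 12.07, 11.85 and 13.10 at 0 min. Its 6 h arrays overlapped 0 min replicates 1 to 3, with replicate 4 above all, and neither comparison called its change, which was -0.36 ± 0.27 with all 4 controls (adjusted p = 0.304) and -1.20 ± 0.33 against replicate 4 (adjusted p = 0.0602). Against replicate 4 it was called under 5 alternatives, at -1.68 for the mean of its probe sets (adjusted p = 0.000421), at -1.20 with BT20 arrays alone (adjusted p = 0.00175) or the 7 arrays alone (adjusted p = 0.00233), at -1.15 with array weights and at -1.34 with quantile normalization repeated (adjusted p = 0.0147).

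In the receptor family itself, of 12 ErbB receptors and inhibitors 2 rose and 1 fell, with medians of 0.06 and 0.28. ERBB3, the kinase-impaired partner that couples to PI3K, had 11.28, 11.27 and 11.27 at 6 h, against 10.62, 10.70, 10.48 and 10.64 at 0 min. The arrays of each time were tightly grouped, and the change was 0.67 ± 0.09 with all 4 controls (adjusted p = 3.06e-05) and 0.64 ± 0.13 against replicate 4 (adjusted p = 0.00992). For the mean of its probe sets the second ERBB3 change was 0.30 (adjusted p = 0.498). CBLB, a ubiquitin ligase for activated receptors, had 9.10, 9.08 and 9.36 at 6 h, against 8.15, 7.78, 8.31 and 7.71 at 0 min, and rose by 1.20 and 1.48. LRIG1, a transmembrane protein that promotes ErbB breakdown, had 8.37, 8.56 and 8.12 at 6 h, against 9.28, 9.24, 9.43 and 9.28 at 0 min, and changed by -0.96 and -0.93. For the mean of its probe sets the second LRIG1 change was -0.24 (adjusted p = 0.506), and with arrays centred on their median that call also ended (adjusted p = 0.0648). The drug's target EGFR had 11.997, 11.97 and 11.75 at 6 h, against 12.49, 12.46, 12.40 and 12.16 at 0 min. Its 6 h arrays were all under the 0 min arrays, as in 21.3% of all genes tested, and neither change was called. The change was -0.47 ± 0.23 with all 4 controls (adjusted p = 0.115) and -0.26 ± 0.35 against replicate 4 (adjusted p = 0.971). With all 4 controls it was called under 5 alternatives, at -0.59 for the mean of its probe sets (adjusted p = 0.000369), at -0.47 with BT20 arrays alone (adjusted p = 0.00316) or the 7 arrays alone (adjusted p = 0.028), at -0.52 with array weights and at -0.55 with a replicate block (adjusted p = 0.0282). ERBB2 had 7.97 ± 0.14 (SD, n = 3) at 6 h and 8.15 ± 0.46 (SD, n = 4) at 0 min, with changes of -0.17 and 0.34 that were not called.

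Among 8 EGF-family ligands 1 fell and none rose. It was HBEGF, a ligand of EGFR and ERBB4, which had 4.26, 4.71 and 4.75 at 6 h, against 7.44, 7.45, 7.51 and 6.98 at 0 min, and changed by -2.77 ± 0.21 with all 4 controls (adjusted p = 1.67e-08) and -2.40 ± 0.31 against replicate 4 (adjusted p = 9.16e-05). The list's medians were -0.12 and -0.21. Of 16 Eph receptors and ephrins 2 fell and none rose, with medians of -0.21 and 0.04. EPHA2, a receptor known as an ERK target, had 7.63, 7.58 and 7.49 at 6 h, against 9.80, 9.82, 9.70 and 10.10 at 0 min, all 0 min arrays being over 2 log2 units above all 6 h arrays, and changed by -2.29 ± 0.32 with all 4 controls (adjusted p = 3.53e-05) and -2.54 ± 0.49 against replicate 4 (adjusted p = 0.00487). EFNB2, the ligand ephrin-B2, changed by -0.77 and -0.84, and a further probe set of it by -2.59 and -1.25. 

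The cell cycle regulators gave 1 rise and 1 fall among 10 G1 cyclins and CDK inhibitors, with medians of -0.05 and 0.08. CCND1, cyclin D1, which carries growth signals to CDK4 and CDK6, had 10.31, 10.26 and 10.38 at 6 h, against 11.65, 11.58, 11.51 and 11.58 at 0 min. The 4 controls were closely grouped above the 6 h arrays, and the change was -1.26 ± 0.12 with all 4 controls (adjusted p = 4.9e-07) and -1.26 ± 0.19 against replicate 4 (adjusted p = 0.000368). A further CCND1 probe set changed by -2.44 and -1.80. CCNG2, an unconventional cyclin that rises in quiescent cells and a known FOXO target, had 11.71, 11.51 and 11.85 at 6 h, against 8.74, 8.69, 8.47 and 9.85 at 0 min, and rose by 2.75 and 1.84. CDKN1A, the inhibitor p21, had 7.65, 7.62 and 7.82 at 6 h, against 9.27, 9.29, 8.93 and 7.65 at 0 min. Replicate 4 matched the 6 h arrays here, and the changes were -1.09 and 0.05, of which the first alone was called (adjusted p = 0.00326). MYC had 9.90, 9.89 and 9.49 at 6 h, against 7.77, 8.67, 7.94 and 11.19 at 0 min. Its 6 h arrays lay above 0 min replicates 1 to 3 and below replicate 4, so that the changes were 0.87 and -1.43 and neither was called. Without replicate 4 the MYC change with the other controls was 1.64 (adjusted p = 0.00446). Against replicate 4 it was -1.43 and called with BT20 arrays alone (adjusted p = 0.0247) or the 7 arrays alone (adjusted p = 0.0241) and -1.35 with array weights (adjusted p = 0.00128), so that both signs were called under some setting.

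The list with the most rises was that of ATF4 and CHOP targets, genes of the response to amino acid shortage and unfolded protein. Of 20 tested 7 rose and none fell, with medians of 1.04 and 0.88. CHAC1, an enzyme that breaks down glutathione, had 7.57, 7.78 and 7.66 at 6 h, against 4.26, 3.71, 4.29 and 4.21 at 0 min. DDIT4, an inhibitor of mTORC1, had 11.83, 11.98 and 11.95 at 6 h, against 7.97, 7.87, 7.91 and 8.86 at 0 min. NUPR1, a small stress-induced chromatin protein, had 10.71, 10.71 and 10.21 at 6 h, against 8.03, 8.52, 7.80 and 7.98 at 0 min. The 6 h arrays of all 3 genes stood over 1 log2 unit above every control. The changes were 3.55 ± 0.31 with all 4 controls (adjusted p = 8.82e-08) and 3.46 ± 0.48 against replicate 4 (adjusted p = 0.000177) for CHAC1, 3.77 and 3.06 for DDIT4 and 2.46 and 2.56 for NUPR1. SESN2, a leucine sensor that also restrains mTORC1, had 7.21, 7.13 and 7.06 at 6 h, against 5.47, 5.45, 5.42 and 4.68 at 0 min, replicate 4 being the lowest control, and rose by 1.88 and 2.45. CTH, which makes cysteine from cystathionine, had 8.46, 8.60 and 8.49 at 6 h, against 5.29, 5.69, 5.57 and 6.62 at 0 min, and rose by 2.72 and 1.89. The remaining members were ASNS and VLDLR, named here after their values were seen. ASNS, asparagine synthetase, had 10.89, 11.14 and 10.79 at 6 h, against 9.40, 9.34, 9.11 and 9.02 at 0 min, and rose by 1.72 and 1.92. VLDLR, a lipoprotein receptor, rose by 2.10 and 1.66.

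ATF4 pairs with C/EBP proteins on a composite element. Promoters are RefSeq's on GRCh38.p14, from 250 bases before the annotated start to 50 after it, and 105 of 127 rises, 91 of 127 falls and 10315 of 12643 genes tested had one. The letters TGATGNAA, on either strand, were in 9 rises (8.57%), 3 falls (3.30%) and 188 of all genes tested (1.82%). The 9 rises were ASNS, CHAC1, HERPUD1, CARS1, DLGAP1-AS6, GPX8, HSD17B4, LINC01133 and TLR3. The promoters of the first 4 are shown because these genes are on a list above or below, and they were chosen after the matches were seen. Of the other ATF4 and CHOP targets that rose, DDIT4, SESN2, CTH and VLDLR had a promoter without these letters, and NUPR1 had none in the table. In each sequence capitals mark the match, which in CHAC1, HERPUD1 and CARS1 reads as TTGCATCA because it lies on the opposite strand. The match lies 68 bases before the start in ASNS, 209 in CHAC1, 176 in HERPUD1 and 2 in CARS1. A match is a description and not a bound site.
ASNS, chr7:97872359-97872658, minus strand: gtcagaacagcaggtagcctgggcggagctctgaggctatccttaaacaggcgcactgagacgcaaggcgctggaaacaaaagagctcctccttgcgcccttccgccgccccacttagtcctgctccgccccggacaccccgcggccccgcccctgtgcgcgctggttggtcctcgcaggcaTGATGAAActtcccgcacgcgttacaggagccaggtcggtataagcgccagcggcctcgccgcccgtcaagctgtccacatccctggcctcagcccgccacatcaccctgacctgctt
CHAC1, chr15:40953221-40953520, plus strand: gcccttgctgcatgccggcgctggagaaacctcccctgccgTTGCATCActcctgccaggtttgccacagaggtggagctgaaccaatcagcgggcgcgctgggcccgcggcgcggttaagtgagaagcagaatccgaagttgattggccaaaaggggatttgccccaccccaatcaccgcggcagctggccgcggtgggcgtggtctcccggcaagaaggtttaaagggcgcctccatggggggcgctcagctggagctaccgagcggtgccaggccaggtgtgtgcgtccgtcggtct
HERPUD1, chr16:56931892-56932191, plus strand, with an E-box CACGTG 159 bases before the start also in capitals: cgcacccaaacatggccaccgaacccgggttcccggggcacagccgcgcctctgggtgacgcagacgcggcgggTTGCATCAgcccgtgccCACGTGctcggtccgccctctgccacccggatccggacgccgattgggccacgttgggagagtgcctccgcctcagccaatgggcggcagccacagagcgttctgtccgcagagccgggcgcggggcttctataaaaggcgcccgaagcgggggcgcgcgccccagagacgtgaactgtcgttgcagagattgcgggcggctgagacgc
CARS1, chr11:3057374-3057673, minus strand: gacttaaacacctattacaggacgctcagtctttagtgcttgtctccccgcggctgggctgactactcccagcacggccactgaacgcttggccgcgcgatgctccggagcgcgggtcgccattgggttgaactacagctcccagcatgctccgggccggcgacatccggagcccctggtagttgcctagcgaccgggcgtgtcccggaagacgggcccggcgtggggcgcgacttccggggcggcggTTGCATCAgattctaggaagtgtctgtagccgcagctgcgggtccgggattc

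In the neighbouring branches of amino acid and protein supply, only 1 or 2 members of each list rose. Of 11 serine and folate enzymes 2 rose and none fell, with medians of 0.15 and 0.32. ALDH1L2, a mitochondrial enzyme of folate metabolism, had 7.73, 7.45 and 7.65 at 6 h, against 3.19, 3.28, 3.15 and 3.87 at 0 min, a gap of over 3 log2 units to every control, and changed by 4.23 ± 0.17 with all 4 controls (adjusted p = 5.61e-13) and 3.74 ± 0.22 against replicate 4 (adjusted p = 1.65e-09). MTHFD2, a mitochondrial enzyme of the same route, had 12.26, 12.04 and 12.24 at 6 h, against 11.56, 11.51, 11.62 and 11.55 at 0 min, and rose by 0.62 and 0.63. Its second adjusted p was 0.0541 to 0.116 without 6 h replicate 1 or 3 or 0 min replicate 1 or 2, and for the mean of its probe sets the second change was 0.49 (adjusted p = 0.265). Of 15 amino acid transporters 1 rose, SLC7A11, the cystine importer, with 12.52, 12.46 and 12.48 at 6 h, against 11.82, 11.75, 11.79 and 11.51 at 0 min, with a change of 0.77 and 0.98. None fell, and the medians were 0.14 and 0.26. It was also the only member that rose of 19 NRF2 targets, of which none fell (medians 0.10 and 0.05). Of 17 cytosolic aminoacyl-tRNA synthetases 1 rose, CARS1, which charges cysteine tRNA, by 0.84 and 1.02, and none fell (medians -0.03 and 0.15). Its second adjusted p was 0.0513 to 0.103 without any of the 6 h arrays or 0 min replicate 1.

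Of 17 endoplasmic reticulum genes 2 rose and none fell, with medians of 0.08 and -0.01. HERPUD1, a part of the degradation machinery at the reticulum, had 11.92, 11.89 and 11.79 at 6 h, against 10.57, 10.58, 10.83 and 10.60 at 0 min. The 6 h arrays lay above every control, and the change was 1.22 ± 0.09 with all 4 controls (adjusted p = 1.42e-08) and 1.27 ± 0.14 against replicate 4 (adjusted p = 9.01e-06). XBP1, a transcription factor of the unfolded protein response, rose by 1.33 and 0.94, and its second adjusted p was 0.0538 to 0.128 without any of the 6 h arrays or 0 min replicate 1. For the mean of its probe sets the second XBP1 change was 0.42 (adjusted p = 0.322). XBP1 was also the single rise among 15 luminal markers, none of which fell (medians -0.23 and -0.22).

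**Figure D3:**
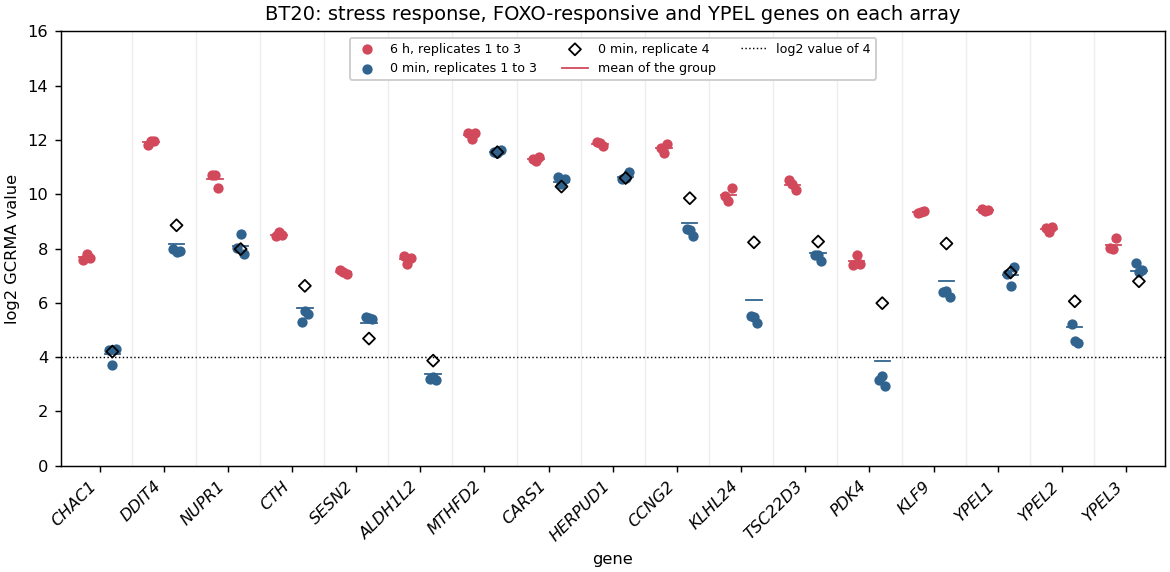
Log2 level on each array for genes that rose, with 6 h arrays left of 0 min arrays and replicate 4 marked. ALDH1L2, CHAC1 and NUPR1 show replicate 4 with the other controls, and KLHL24, KLF9 and PDK4 show it between them and the 6 h arrays.

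FOXO-responsive genes gave 5 rises and no falls among 22 tested, with medians of 0.53 and 0.33. TSC22D3, the glucocorticoid-induced leucine zipper, had 10.52, 10.39 and 10.16 at 6 h, against 7.77, 7.76, 7.55 and 8.26 at 0 min, and changed by 2.52 ± 0.27 with all 4 controls (adjusted p = 1.26e-06) and 2.10 ± 0.39 against replicate 4 (adjusted p = 0.00357). KLHL24, a substrate receptor of a ubiquitin ligase, had 9.94, 9.76 and 10.23 at 6 h, against 5.51, 5.46, 5.25 and 8.23 at 0 min. PDK4, a kinase that turns off pyruvate dehydrogenase in fasting, had 7.39, 7.76 and 7.44 at 6 h, against 3.15, 3.29, 2.95 and 5.99 at 0 min. KLF9, a zinc finger factor, had 9.32, 9.36 and 9.38 at 6 h, against 6.40, 6.43, 6.20 and 8.18 at 0 min. In these genes replicate 4 lay over 1 log2 unit above the other controls and still below the 6 h arrays. The changes were accordingly smaller against it, 3.86 and 1.75 for KLHL24, 3.68 and 1.54 for PDK4 and 2.55 and 1.17 for KLF9. For the mean of its probe sets the second change of KLF9 was 0.32 (adjusted p = 0.699), and without 6 h replicate 3 its second adjusted p was 0.0539. CCNG2, given above, was the other member. PDK4 was the only rise among 8 pyruvate dehydrogenase kinases and phosphatases and KLF9 the only one among 14 KLF factors, and neither list had a fall. Their medians were 0.01 and 0.15 for the kinases and phosphatases and 0.19 and 0.05 for the KLF factors.

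The forkhead letters GTAAACA were in 8 promoters of rises (7.62%), 3 of falls (3.30%) and 2.28% of all genes tested. The 8 rises were BCL2L11, CCDC28A, CYP4F3, HBP1, MAP3K8, PLEKHM3, SELENOP and YPEL3, none of them among the 5 FOXO-responsive rises above, whose promoters all lacked these letters. BCL2L11, the death gene described below, is shown as an example chosen after the matches were seen, with the letters 223 bases before its start in capitals.
BCL2L11, chr2:111120664-111120963, plus strand: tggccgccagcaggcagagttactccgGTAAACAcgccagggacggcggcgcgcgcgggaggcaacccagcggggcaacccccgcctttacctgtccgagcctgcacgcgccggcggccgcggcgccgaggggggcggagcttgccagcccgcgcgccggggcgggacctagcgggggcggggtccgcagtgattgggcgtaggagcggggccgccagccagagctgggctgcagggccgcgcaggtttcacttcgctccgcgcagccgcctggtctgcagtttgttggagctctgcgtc
The AP-1 letters TGANTCA were in 6.67% of promoters of rises, 7.69% of falls and 4.55% of all genes tested, and the E-box CACGTG in 6.67%, 9.89% and 10.2%.

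The YPEL family, small conserved zinc-binding proteins of poorly known function, had 3 rises and no falls among 4 tested, with medians of 1.68 and 1.82. YPEL2 had 8.76, 8.61 and 8.78 at 6 h, against 5.22, 4.61, 4.51 and 6.06 at 0 min, and changed by 3.62 ± 0.30 with all 4 controls (adjusted p = 3.49e-08) and 2.66 ± 0.35 against replicate 4 (adjusted p = 0.000113). YPEL1 had 9.46, 9.40 and 9.41 at 6 h, against 7.07, 6.62, 7.30 and 7.12 at 0 min, with all controls over 2 log2 units below the 6 h arrays, and rose by 2.40 and 2.30. YPEL3 rose by 0.97 and 1.33. Of 16 circadian clock genes 1 fell and none rose, with medians of 0.44 and 0.30. It was NPAS2, a partner of BMAL1 related to CLOCK, with 8.73, 9.09 and 8.56 at 6 h, against 10.66, 10.77, 10.30 and 10.68 at 0 min, with a change of -1.80 and -1.88.

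Several of the largest rises lay on no pathway list. MKX, a homeobox factor known from tendon, had 6.46, 6.83 and 6.50 at 6 h, against 2.95, 2.74, 2.72 and 2.71 at 0 min. The controls lay under 3 on every array, so the size of its rise of 3.82 and 3.89 is inexact. LCA5, which encodes a ciliary protein, had 8.40, 8.58 and 8.85 at 6 h, against 4.89, 5.08, 4.69 and 6.49 at 0 min, and rose by 3.32 and 2.12. MAF, a bZIP factor, had 6.61, 6.71 and 6.93 at 6 h, against 4.87, 5.14, 4.92 and 4.82 at 0 min, and rose by 1.81 and 1.93, but the mean of all its probe sets changed by 0.19 and 0.39 with neither called. 

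The largest falls beyond the ERK list follow, named by a rule that itself required arrays without overlap. TNS4, a short tensin that binds integrin tails, had 4.26, 4.35 and 4.59 at 6 h, against 10.01, 10.07, 9.70 and 9.004 at 0 min, and changed by -5.30 ± 0.22 with all 4 controls (adjusted p = 5.61e-13) and -4.60 ± 0.26 against replicate 4 (adjusted p = 9.39e-10). LINC01127, a long noncoding RNA, had 5.09, 5.43 and 5.04 at 6 h, against 10.57, 10.58, 9.96 and 8.91 at 0 min, and changed by -4.82 and -3.72. MYEOV, a gene near CCND1 that is overexpressed in some tumours, had 5.08, 5.14 and 5.26 at 6 h, against 9.45, 9.33, 8.66 and 8.78 at 0 min, and changed by -3.89 and -3.62. In each the 4 controls lay over 3 log2 units above the 6 h arrays. HSD3B1, an enzyme of steroid synthesis, had 8.04, 8.01 and 8.21 at 6 h, against 11.11, 11.04, 10.95 and 11.29 at 0 min, and changed by -3.01 and -3.20. MFSD2A, a carrier of lysophospholipids, had 3.82, 3.83 and 3.55 at 6 h, against 7.32, 7.10, 7.27 and 6.43 at 0 min, and changed by -3.30 and -2.70. SH3TC2, an adaptor of recycling endosomes, changed by -3.24 and -2.42. Secreted proteins were among the falls as well. LIF, a cytokine of the interleukin-6 family, had 6.45, 6.32 and 6.42 at 6 h, against 8.93, 8.58, 8.79 and 9.93 at 0 min, replicate 4 being the highest control, and changed by -2.66 and -3.53. NOG, the BMP antagonist noggin, had 8.80, 8.87 and 9.21 at 6 h, against 11.84, 11.57, 11.73 and 11.17 at 0 min, and changed by -2.62 and -2.21. CD274, the immune checkpoint ligand PD-L1, had 7.03, 7.20 and 7.06 at 6 h, against 9.57, 9.60, 9.65 and 9.73 at 0 min. Its 4 controls were closely grouped above the 6 h arrays, and its change was -2.54 ± 0.12 with all 4 controls (adjusted p = 7.19e-12) and -2.64 ± 0.18 against replicate 4 (adjusted p = 1.43e-08).

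Adhesion and differentiation genes gave few calls that held. TNS4 was the only fall among 13 tensins and focal adhesion genes, none of which rose (medians -0.42 and -0.16). ITGA2, the collagen receptor subunit alpha 2, was the only fall among 10 laminin-332 and integrin genes, with no rise (medians -0.95 and -0.22). It had 9.20, 9.13 and 9.38 at 6 h, against 11.12, 11.11, 11.41 and 10.69 at 0 min, with a change of -1.84 ± 0.19 with all 4 controls (adjusted p = 7.27e-07) and -1.45 ± 0.26 against replicate 4 (adjusted p = 0.0025). Of 17 cornified envelope genes 2 fell and none rose, with medians of -0.61 and -0.21. IVL, involucrin, a scaffold of the cornified envelope, had 5.05, 4.94 and 5.04 at 6 h, against 8.26, 7.84, 8.07 and 6.81 at 0 min, and changed by -2.73 and -1.80. PADI1, which converts arginine to citrulline in epidermal proteins, had 4.36, 4.78 and 4.32 at 6 h, against 8.60, 8.40, 8.78 and 6.13 at 0 min, and changed by -3.49 and -1.65. In both, replicate 4 lay between the other controls and the 6 h arrays.

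Cell death genes moved in single members. Of 7 BH3-only genes 1 rose, BCL2L11, which encodes BIM, and none fell (medians 0.54 and 0.14). It had 9.78, 9.71 and 9.63 at 6 h, against 9.28, 9.53, 9.38 and 8.51 at 0 min, replicate 4 being the lowest control, and changed by 0.54 ± 0.17 with all 4 controls (adjusted p = 0.0174) and 1.20 ± 0.16 against replicate 4 (adjusted p = 0.000122). Without 6 h replicate 1 its first change was 0.50 (adjusted p = 0.0619), and without 0 min replicate 4 it was 0.31, still called. For the mean of its probe sets the second change was 0.86 (adjusted p = 0.106). Of 15 caspases and death receptors 1 fell and none rose (medians -0.04 and -0.08). It was TNFRSF10A, a receptor of the ligand TRAIL, with 8.62, 8.87 and 8.80 at 6 h, against 10.17, 9.95, 10.27 and 9.78 at 0 min, with a change of -1.28 and -1.02. CASP8, the initiator caspase of death receptors, had 9.98, 9.92 and 10.21 at 6 h, against 9.001, 8.53, 8.94 and 10.11 at 0 min. Replicate 4 stood with the 6 h arrays, the changes were 0.89 and -0.08, and the first alone was called (adjusted p = 0.0215). That call ended without 6 h replicate 3 or any of 0 min replicates 1 to 3, with adjusted p of 0.0551 to 0.0872. CFLAR, the inhibitor of caspase 8, changed by 0.04 and -0.06, and BID, which links caspase 8 to mitochondria, by -0.35 and -0.27, with none called. The 6 h arrays of BID all lay under its 0 min arrays, as in 21.3% of all genes tested. With all 4 controls BID was called at -0.35 with BT20 arrays alone (adjusted p = 0.0124) or the 7 arrays alone (adjusted p = 0.0328), and at -0.41 with array weights. Of 19 p53 targets 2 rose and none fell (medians 0.09 and 0.11), SESN2 and TP53INP1. TP53INP1, a stress protein of autophagy and cell death, had 8.62, 8.68 and 8.55 at 6 h, against 6.08, 6.16, 5.87 and 7.30 at 0 min, and rose by 2.26 and 1.31. Of 24 interferon-stimulated genes 1 fell and none rose (medians -0.09 and 0.01). It was IFIT1, which binds viral RNA, with a change of -0.49 and -0.82. Without 6 h replicate 1 its adjusted p were 0.0669 and 0.0712.

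In 19 of 47 lists no member rose or fell both ways by limma's adjusted p. At an unadjusted p under 0.05 both ways, 5.09% of all genes tested were higher and 3.52% lower. With all 4 controls, 21.6% of all genes tested were called higher and 16.6% lower, the shares to set beside the counts below. The mitosis genes had 6 of 26 higher and none lower at that level. With all 4 controls 16 mitosis genes were called higher and 1 lower, and the medians were 0.44 and 0.22. The ribosome biogenesis factors had 7 of 23 lower and none higher at an unadjusted p, 12 called lower with all 4 controls and none higher, and medians of -0.61 and -0.44. Of 29 G1/S and replication genes none passed either way at an unadjusted p, and 5 were called higher and 2 lower with all 4 controls (medians -0.12 and -0.10). The 12 keratins had none at an unadjusted p both ways, 7 called lower with all 4 controls, and medians of -0.63 and -0.28. The 12 NF-kB targets had 2 lower at an unadjusted p, 7 called lower with all 4 controls, and medians of -0.71 and -0.32. The 7 BCL2-like survival genes had 2 lower, 4 called lower with all 4 controls, and medians of -0.82 and -0.43.

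Further lists without a gene that held were metabolic, housekeeping and signalling ones. For 23 glycolysis and hypoxia genes 1 was lower at an unadjusted p both ways, and the medians were -0.27 and -0.13. For 15 cholesterol synthesis genes none was, with medians of -0.22 and -0.08. For 21 nucleotide and polyamine enzymes 3 were lower, with medians of -0.11 and -0.18. For 22 lysosome and autophagy genes 2 were higher, with medians of -0.25 and 0. For 17 ribosomal protein genes none passed, with medians of -0.22 and -0.13. Among signalling lists, 1 of 13 other receptor tyrosine kinases was lower (medians -0.07 and 0.05), 1 of 11 genes of the MYC network was lower (0.48 and 0.01), and 1 of 10 ID and SMAD genes was lower (0.30 and -0.10). Of 10 urokinase and matrix protease genes 1 was higher and 1 lower (-0.29 and 0.00133). Of 8 basal markers 1 was lower (-0.43 and -0.12). The fibroblast list (2 tested) and the endothelial list (3 tested) had none, and no blood marker passed the filter.

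**Figure D4:**
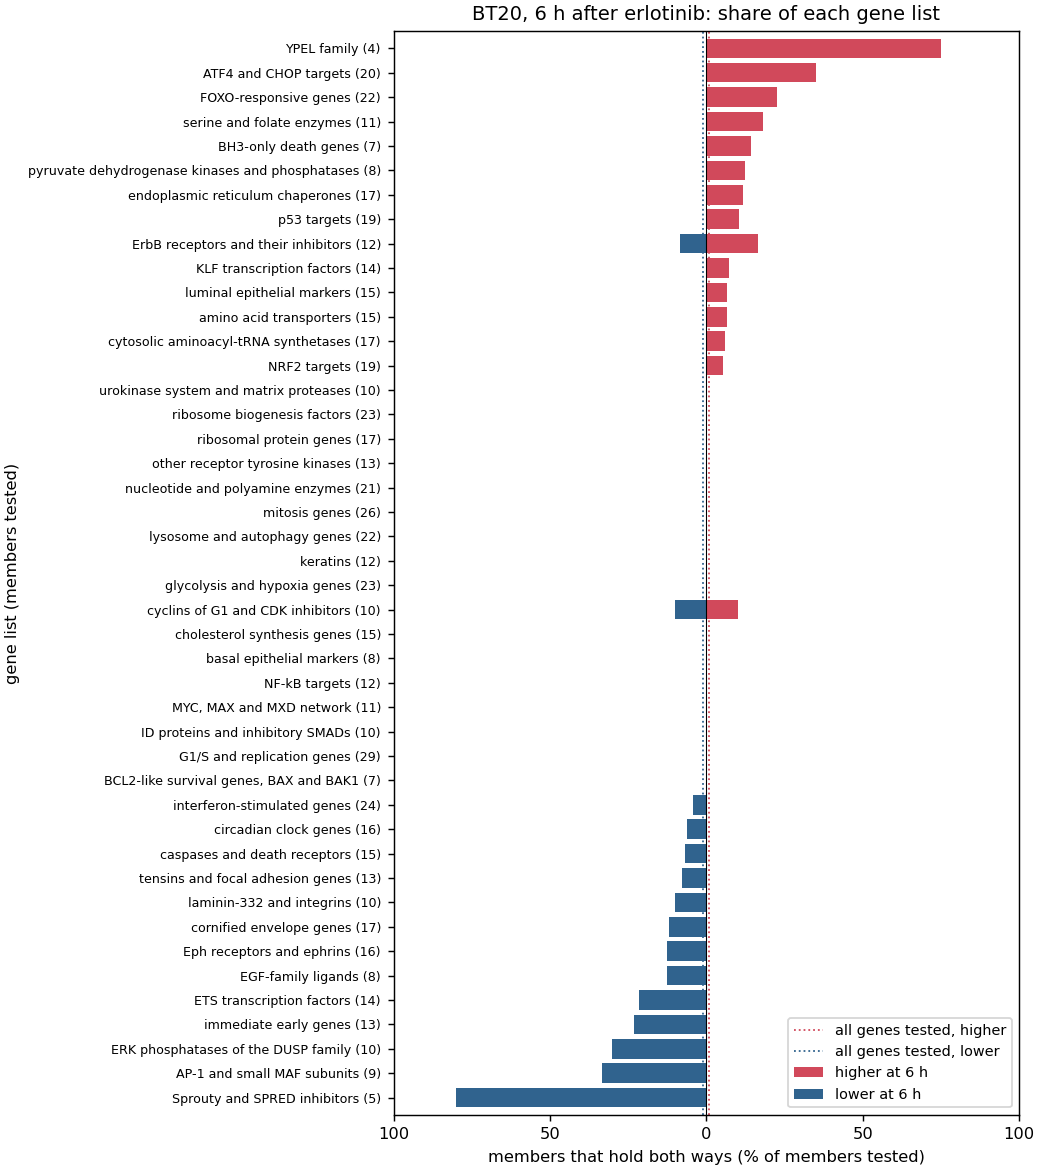
Share of each gene list, in percent of members tested, that rose (right) or fell (left) both ways in BT20 at 6 h, for lists with at least 4 members tested, with the number tested beside the name and dotted lines at 1.00% for all genes. The ATF4 and CHOP list has 7 rises of 20, the FOXO list 5 of 22, and the Sprouty and SPRED list 4 falls of 5.

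Of the genes called with all 4 controls, 4573 did not hold, which says only that they missed the threshold against replicate 4. Those named here lost most of their size there, among called genes with a group mean of at least 6. MEX3D, an RNA-binding protein, had 8.82, 8.81 and 8.27 at 6 h, against 2.76, 3.19, 3.32 and 9.24 at 0 min. Replicate 4 was above the 6 h arrays and the other controls under 4, so that the changes were 4.01 and -0.60. VHL, the substrate receptor that degrades hypoxia-inducible factors, had 8.57, 8.99 and 8.59 at 6 h, against 4.39, 4.04, 4.28 and 8.32 at 0 min, with changes of 3.46 and 0.39. SLC35D1, a transporter of nucleotide sugars, changed by 3.41 and 0.06, and TRMT2B, a mitochondrial methyltransferase, by 2.64 and -0.38. The TRMT2B call with all 4 controls ended without 0 min replicate 2 (2.18, adjusted p = 0.0564). Among lower levels, CLU, the chaperone clusterin, had 7.23, 7.13 and 7.17 at 6 h, against 10.01, 9.96, 9.87 and 6.81 at 0 min, and changed by -1.98 and 0.37. IGFL1, a secreted protein related to insulin-like growth factors, had 5.43, 5.68 and 5.30 at 6 h, against 8.71, 8.62, 8.83 and 5.60 at 0 min, and changed by -2.47 and -0.12. SPOCD1 changed by -2.41 and -0.03 and TMEM171 by -3.56 and -1.21. The TMEM171 arrays did not overlap, and its second change was called with the 7 arrays alone (adjusted p = 0.00259) and with array weights (-1.24, adjusted p = 0.000815). Over all genes tested, 21.3% had every 6 h array under every 0 min array, as TMEM171 did. In CLU, IGFL1 and SPOCD1 replicate 4 was within 0.5 log2 units of the 6 h mean.

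Against replicate 4 only, 38 genes were called. Beside SPRY1, the named ones were SLC2A3, a glucose transporter, with 4.84, 4.74 and 4.57 at 6 h, against 4.71, 4.98, 4.39 and 6.36 at 0 min, with changes of -0.40 and -1.65, LINC00513 (-0.31 and -1.39) and GEMIN5, a part of the SMN complex (-0.36 and -0.94). In each, replicate 4 stood above the other controls by more than these did from the 6 h arrays.

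**Figure D5:**
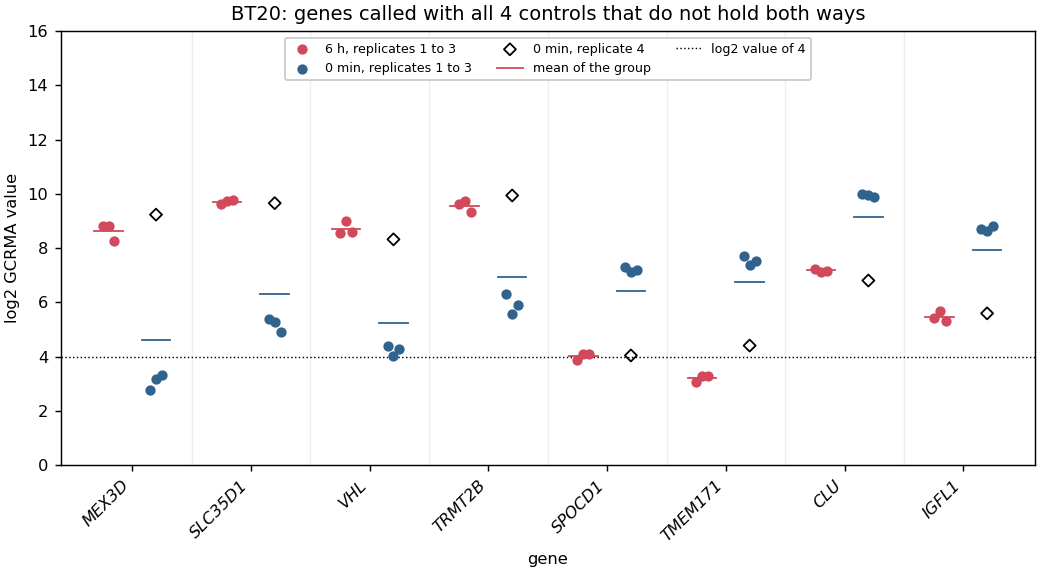
Log2 level on each array for genes that did not hold both ways, with 6 h arrays left of 0 min arrays and replicate 4 marked. In MEX3D, VHL, CLU and IGFL1 replicate 4 lies with the 6 h arrays.

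Levels at 30 min and 24 h stand beside the 6 h arrays with a limit. In some genes, of which 2 are given, the 24 h arrays lay with 0 min replicates 1 to 3 and the 6 h arrays with replicate 4. MEX3D had a mean of 3.38 at 24 h and 8.63 at 6 h, with 9.24 on replicate 4 and a mean of 3.09 on replicates 1 to 3. CLU had 9.83 at 24 h and 7.18 at 6 h, with 6.81 on replicate 4 and a mean of 9.95 on replicates 1 to 3. A difference between 24 h and 6 h therefore holds both time and whatever the 6 h arrays share with replicate 4, which cannot be told apart, and is given below for 6 genes chosen after their values were seen, in which replicate 4 was within 0.5 log2 units of the mean of replicates 1 to 3.

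DUSP6 had means of 9.19 at 0 min, 8.57 at 30 min, 3.61 at 6 h and 3.27 at 24 h. SPRY4 had 7.25 at 0 min, 7.07 at 30 min, 2.13 at 6 h and 2.49 at 24 h. Neither difference between 24 h and 6 h was called, at -0.34, adjusted p = 0.197 for DUSP6 and 0.35, adjusted p = 0.129 for SPRY4. HSD3B1 had 11.10 at 0 min, 11.22 at 30 min, 8.09 at 6 h and 4.03 at 24 h, and its 24 h level lay below that at 6 h (-4.06, adjusted p = 2.2e-13). NUPR1 had 8.08 at 0 min, 8.05 at 30 min, 10.54 at 6 h and 12.19 at 24 h, and was higher at 24 h than at 6 h (1.65, adjusted p = 5.54e-07). ETV4 had 6.80 at 0 min, 7.06 at 30 min, 5.94 at 6 h and 4.15 at 24 h, lower at 24 h than at 6 h (-1.79, adjusted p = 5.14e-09). SRF had 8.60 at 0 min, 8.72 at 30 min, 7.50 at 6 h and 9.06 at 24 h, higher at 24 h than at 6 h (1.55, adjusted p = 6.57e-07).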

How the data were processed

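RNA from BT20 cells was hybridised to Affymetrix arrays, and the authors deposited log2 values per probe set, made with GCRMA 2.20.0 in R 2.11.1 per the submitters' processing notes. GCRMA subtracts a sequence-dependent background, normalizes arrays to each other and summarises probes, so levels near the floor are compressed and compared only within a probe set. On the 7 arrays 44.9 to 45.2% of probe sets lay above 4 and the 75th percentile was 7.73 to 7.81. For arrays, their number limits the precision.

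Of 54613 probe sets, the annotation named 1 gene symbol for 41091, several for 1801 and none for 11721. Each of 19775 genes was represented by its brightest probe set on average. Testing was limited to 12643 genes that exceeded 4 on 3 or more arrays. In R 4.3.3, limma 3.58.1 fitted 8 group means to all 25 arrays (17 residual degrees of freedom). A fit with a term shared by 0 min replicate 4 and the 6 h arrays gave the change against replicate 4 alone (16 degrees of freedom), in which that lone array is assumed to vary like the other groups. P-values are two-sided and adjusted by Benjamini-Hochberg over the 12643 genes, ± is the standard error unless SD is written, and the threshold was 0.05. The members, the 47 lists and the rules were chosen with earlier results of these data known, so counts over lists are descriptions.

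Named genes are the 15 largest rises and 15 largest falls that held both ways, did not overlap and averaged 6 or more at either time, up to 4 held members of each list, 13 fixed genes, the 8 whose change shrank most against replicate 4, and 4 called against replicate 4 only. Of these, 1 gene is not reported here. Genes outside this rule are said to be named after their values were seen.

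On simulated data for 12643 genes with 50 changed at each size, genes changed by 1 log2 unit were recovered at 74% with all 4 controls and 36% both ways. At 2 log2 units the shares were 96% and 86%. False calls made up 7.5% of 160 calls and 0.909% of 110. No array stood apart in that simulation. Whether same-numbered arrays are pairs was not settled. The deviations of same-numbered arrays correlated at -0.115, 0.169 and 0.076, with no unlike-numbered arrays set beside them. Alternatives were no filter and a stricter one at 6, averaging the probe sets of each gene, testing every probe set, BT20 arrays alone, the 7 arrays alone, a trended and robust step, array weights, quantile normalization repeated, median centring, a replicate block and leaving out each array.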

Additional observations from a re-analysis of the deposited data

Results flagged for a closer look

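Over the 84 named genes, 24 had 1 array at 0 min that stood apart from the other 3 by Dixon's test, in 21 of them replicate 4. This count is raised by the choice of genes. Of those named, 8 were picked because their change shrank most against replicate 4, and 4 because they were called against it only. Over all 12643 genes 1572 had such an array, 1359 of them replicate 4, where chance gives about 1 group in 20. Among genes that rose, replicate 4 was the high array in KLHL24 (8.229), PDK4 (5.988), KLF9 (8.184) and DDIT4 (8.855), and the low array in SESN2 (4.684). Among genes that fell it was the low array in FOSL1 (9.813), SH3TC2 (8.199), PADI1 (6.134) and HBEGF (6.976), and the high array in DUSP5 (10.83), SPRED2 (10.82) and EGR3 (3.188).

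Among genes that did not hold both ways, replicate 4 was high in MEX3D (9.236), SLC35D1 (9.66), VHL (8.325), TRMT2B (9.943) and GEMIN5 (10.254), and low in CLU (6.807), IGFL1 (5.596), SPOCD1 (4.043) and TMEM171 (4.407). All of these are among the genes picked by how they differed from replicate 4, so its distance there follows from that choice. Another 0 min array stood apart in 3 genes that rose, replicate 2 in CHAC1 (3.705), replicate 1 in MKX (2.952) and replicate 3 in HERPUD1 (10.827). The cause of these separations was not tested.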

How the results depend on the processing

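Of the 254 genes that held both ways, 124 did so under all 15 alternative settings compared, testing every probe set not among them (52 rises, 72 falls), and 163 on leaving out any 1 array other than replicate 4, without which the second comparison cannot be made. With every probe set tested, 9997 were called with all 4 controls and 399 held. Fits to BT20 arrays alone called 914 genes against replicate 4 and 767 held, and fits to the 7 arrays alone called 804 and 661 held. Array weights, whose estimation did not converge, gave 9301 with all 4 controls, 3209 against replicate 4 and 2483 both ways. Leaving out 1 array gave 3437 to 6046 with all 4 controls, 210 to 282 against replicate 4 and 183 to 249 both ways. A replicate block gave 6413 calls (3321 higher, 3092 lower), but whether arrays that share a number are pairs was not settled. The block could not be fitted against replicate 4, which is alone in its block.

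Signs turned in genes with small changes, none called where it turned. CDKN1A against replicate 4 ranged from -0.01 (without 6 h replicate 3) to 0.088 on leaving out 1 array. CFLAR with all 4 controls was -0.04223 for the mean of probe sets, -0.0272 with quantile normalization repeated and -0.045 (without 0 min replicate 2) to 0.1103 on leaving out 1 array, and its change against replicate 4 was 0.06745 for the mean of probe sets. With the block or without replicate 4, LINC00513 was 0.055, SLC2A3 0.02033 and SPRY1 0.041, the highest values on leaving out 1 array, and the lowest were -0.487, -0.6367 and -0.978. With array weights LINC00513 was 0.1116 and SPRY1 0.01171. Against replicate 4 SLC35D1 was -0.2061 for the mean of probe sets, and SPOCD1 ranged from -0.0685 to 0.049 (without 6 h replicate 1). The mean of probe sets also ended the call against replicate 4 for BCL2L11, ERBB3, KLF9, LRIG1, MAF, MTHFD2, SRF and XBP1. Among named genes that held, the 7 arrays alone ended the call with all 4 controls for BCL2L11, DUSP5 and SPRED1 and that against replicate 4 for EFNB2. Median centring ended the first call of DUSP5 and the second of EGR3, ETV4, KLF9, LRIG1 and MTHFD2. Testing every probe set ended the second call of CARS1, EGR3, ETV4, MTHFD2 and XBP1. Without the filter the first call of DUSP5 and the second of ETV4 and XBP1 ended. The trended and robust step ended the second call of ETV4, and a replicate block the first of DUSP5 and SPRED1. Of the 221 further probe sets of held genes 206 had the same sign both ways and 74 held, against 5 of opposite sign both ways. The causes were not tested. With 3 arrays at 6 h and 1 lone control array in the second comparison, changes under 1 log2 unit were seldom detectable.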

Other observations

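Of the 254 genes that held both ways, 201 were on no list. The following groups were put together after their values were seen, and no test was made of them. Genes with immune roles lay on both sides and were not tallied, and some are given. TLR3, a sensor of double-stranded RNA, had 4.67, 4.91 and 4.42 at 6 h, against 2.74, 3.19, 2.69 and 3.46 at 0 min, and rose by 1.64 and 1.20, with its 0 min level under 4. PDCD1LG2, the second PD-1 ligand, had 2.78, 2.94 and 2.75 at 6 h, against 4.91, 4.81, 4.82 and 4.62 at 0 min, and changed by -1.97 and -1.80, with its 6 h level under 4. IFNGR2, a chain of the interferon gamma receptor, had 6.62, 6.82 and 6.76 at 6 h, against 8.03, 8.08, 8.16 and 8.41 at 0 min, and changed by -1.44 and -1.68. CD83 changed by -2.06 and -1.32, IL7R by -0.97 and -1.22, the decoy receptor IL1R2 by -1.70 and -0.74 and NOD2, a sensor of bacterial peptidoglycan, by -1.29 and -1.33. On leaving out 1 array other than replicate 4, IL1R2 and NOD2 each held in 4 of 6 settings, and TLR3 in 5. Of the adenosine receptors, ADORA1 (-2.24 and -1.98) and ADORA2B (-1.33 and -1.32) fell, with ADORA2B at 10.03, 10.12 and 9.86 at 6 h, against 11.34, 11.32, 11.36 and 11.32 at 0 min. Other adenosine receptors are not given here. A further probe set of ADORA1 changed by only -0.42 and -0.12.

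Some genes known from primary cilia were among the rises beside LCA5, and such genes were not tallied. BBIP1, a subunit of the BBSome that carries membrane proteins into cilia, had 11.48, 11.54 and 11.62 at 6 h, against 9.09, 9.08, 9.53 and 10.08 at 0 min, and rose by 2.10 and 1.46. LZTFL1, which regulates BBSome traffic, rose by 1.41 and 0.89. IFT80, a part of the intraflagellar transport complex, rose by 0.74 and 0.73, and CILK1, a kinase of cilia, by 1.30 and 1.04. IFT80 held in 4 of the 6 settings that leave out 1 array. In LCA5, BBIP1 and LZTFL1 replicate 4 lay above the other controls and below the 6 h arrays, and in IFT80 it lay among them.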
